A study of Homo sapiens with 24 samples.

Results

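Expression of GOLM1 and of 7 other structural genes of the Golgi apparatus (GOLGA1, GOLGA2, GOLGA3, GOLGA4, GOLGA5, GOLGB1 and GORASP2) was followed in 7 human cancer cell lines on 24 two-colour Agilent arrays. The 8 genes were chosen by symbol, out of 44639 gene names on the arrays, and all 8 were found with 13 probes in all, 12 on the first array design and 13 on the second. PC3, DU145 and LNCap are prostate cancer lines, A498 and 786O are renal carcinoma lines, and FaDu and SAS are head and neck squamous carcinoma lines. On each array the treated cells were labelled with Cy5 and the control cells with Cy3, and each line, treatment and time had 1 array.

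The first design (16 arrays) held genistein in PC3 and DU145 against cells labelled as untreated. The paper instead describes the genistein controls as cells given the DMSO vehicle. The same design held wogonin in SAS and FaDu against DMSO, and, against control siRNA, si-CAV2 in A498 and 786O and si-LAMB3 in FaDu and SAS. It also held, against control miRNA, miR-145 in PC3, DU145 and LNCap, miR-375 in FaDu, miR-29a in SAS, and miR-23b, miR-24 and miR-27b in PC3. The second design (8 arrays) held si-GOLM1 in DU145 and PC3 against control siRNA, miR-143 in DU145 and PC3 and miR-27b in 786O and A498 against control miRNA, and CXCL10 for 12 h and 24 h in 786O against untreated cells. Dyes were never swapped, so an effect of the dye and an effect of a treatment cannot be told apart on 1 array. The lines of a treatment stood in for repeats, and for CXCL10 the 12 h and 24 h arrays of 786O did, so the errors below hold differences between lines or times, and the spread between separate cultures of 1 line was not measured for any treatment. As total RNA of whole cultures was labelled, fewer expressing cells and less RNA per cell cannot be told apart.

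The Golgi apparatus sorts and modifies secreted and membrane proteins. Golgins are long coiled-coil proteins on its surface that catch incoming vesicles and hold the stack of cisternae together: GOLGB1 (giantin) and GOLGA5 (golgin-84) are anchored in the membrane, GOLGA2 (GM130) lies on the cis face, and GOLGA1 (golgin-97) and GOLGA4 (golgin-245) lie on the trans face. GORASP2 (GRASP55) joins cisternae, and GOLGA3 (golgin-160) is a further coiled-coil member. GOLM1 (GP73, golgi phosphoprotein) is a type II membrane protein of the cis and medial Golgi that is shed into serum and is known for high levels in liver and prostate cancer.

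The transfected microRNAs other than miR-29a are shown for reference. The labels name no arm, so the arm usually meant by each name is printed from RefSeq (GRCh38.p14), 5′ to 3′, with the seed (bases 2 to 8) in capitals.
hsa-miR-143-3p: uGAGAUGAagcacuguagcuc
hsa-miR-145-5p: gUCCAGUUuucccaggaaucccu
hsa-miR-27b-3p: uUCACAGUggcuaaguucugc
hsa-miR-23b-3p: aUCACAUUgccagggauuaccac
hsa-miR-24-3p: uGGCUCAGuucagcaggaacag
hsa-miR-375-3p: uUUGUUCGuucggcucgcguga
The genes of miR-143 and miR-145 lie near each other on chromosome 5 (chr5:149428978-149428998 and chr5:149430661-149430683, plus strand), and their seeds share only 1 of 7 positions. miR-23b, miR-27b and miR-24 lie near each other on chromosome 9 (chr9:95085265-95085287, chr9:95085505-95085525 and chr9:95086064-95086085, plus strand). The seeds of miR-23b and miR-27b share 6 of 7 positions, the first 5 in a row. The reverse complement of a seed, written as DNA and searched as AATGTGA for miR-23b, ACTGTGA for miR-27b, TCATCTC for miR-143, AACTGGA for miR-145, CTGAGCC for miR-24 and CGAACAA for miR-375, was looked for in the listed strand of the probes alone. It was in none of the 13 member probes and in 0.0613% to 0.881% of all 50599 probes of the second design; transcripts outside the probes were not analysed here.

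In Cy3, 53.2% to 67.6% of spots passed the scanner software's test against background, and in Cy5 54.2% to 68.9% did. No spot was saturated. Log2 ratios spread further on the first design, with a median probe SD of 0.504 over its arrays, against 0.221 on the second. The designs also held different treatments, and the reason for the wider spread was not tested. CAV2 had log2 ratios of -3.80 in A498 and -3.20 in 786O under si-CAV2, and LAMB3 had -2.50 in FaDu but only -0.89 in SAS under si-LAMB3. The markers of the labelled origin were well above background for 6 of 6 squamous genes in FaDu and 5 of 6 in SAS, 7 of 7 prostate luminal genes in LNCap, and 6 of 6 renal genes in both renal lines. In PC3 and DU145, 3 and 5 of the 7 luminal genes were well above background in all controls of the first design. The summed linear level of the 7 genes was 2.13 and 1.57 there, against 211.8 in LNCap. The renal and squamous lines had sums of 0.67 (786O) to 1.53 (SAS), and A498 and 786O had 4 of 7 genes well above background. The list thus did not clearly set PC3 and DU145 apart from those lines.

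The first question was how far si-GOLM1 lowered its own target. GOLM1 was measured by A_23_P146512 (hg19 chr9:88641562-88641621) and A_33_P3231653 (hg19 chr9:88642342-88642401). The first probe had log2 ratios of -3.02 in DU145 and -4.15 in PC3, and the second had -2.64 and -2.91. GOLM1 was thus low in both lines on both probes, at 12.4% and 5.64% of control by the first probe and at 16.1% and 13.3% by the second. The mean log2 ratio was -3.58 (SE 0.27, n = 2 lines, limma adjusted p = 0.026) by the first probe and -2.77 (SE 0.12, adjusted p = 0.0054) by the second, adjusted over all 28752 probes tested. Only 0.188% of all tested probes were called (adjusted p under 0.05) under si-GOLM1, and 1.7% were below -0.5 on both arrays. Without the PC3 array only the DU145 array was left, with -3.02 by the first probe, so no p is given.

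**Figure D1:**
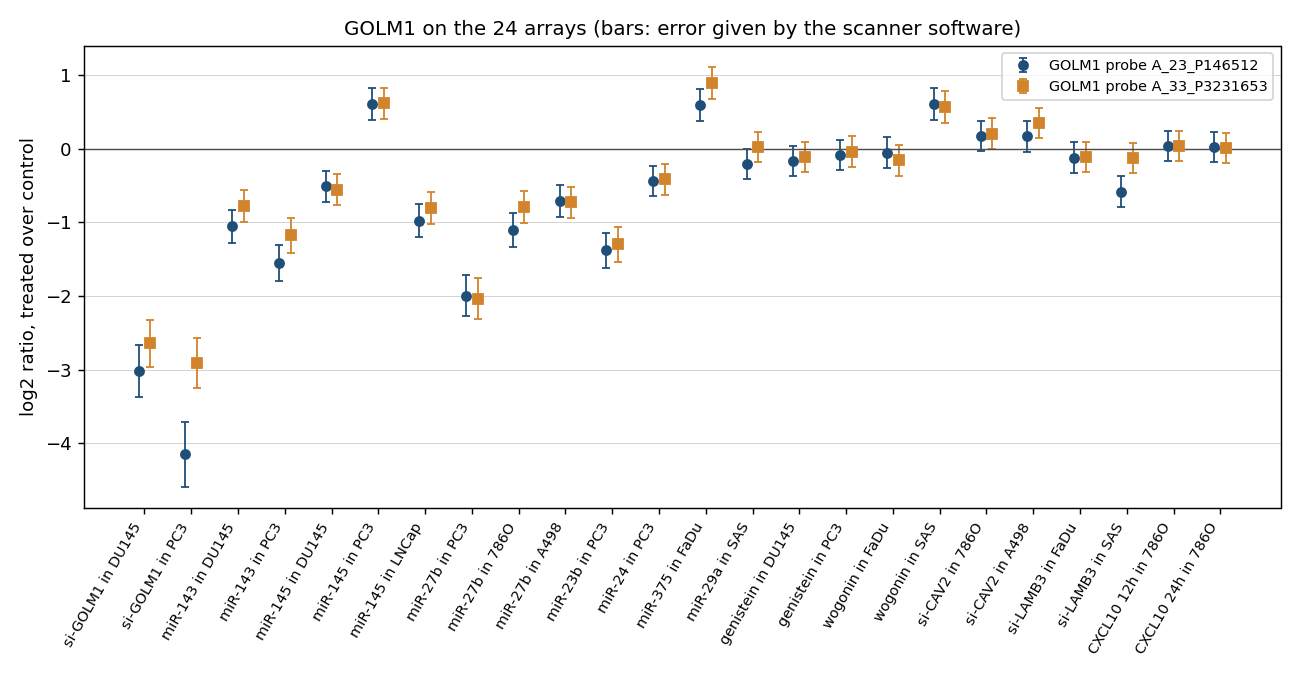
Log2 ratio of treated over control cells for the 2 GOLM1 probes on each of the 24 arrays, with bars for the error that the scanner software gave. Under si-GOLM1 the values lay between -4.15 and -2.64, below those of the other 22 arrays, whose lowest value was -2.04 (miR-27b in PC3).

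None of the 7 other members was called under si-GOLM1. Their brightest probes had values between -0.16 and 0.30 in both lines. GORASP2 had the largest mean of them, with 0.26 in DU145 and 0.30 in PC3 (mean 0.28, SE 0.07, limma adjusted p = 0.165). GORASP2 had values of 0.21 to 0.31 on all 8 arrays of the second design, whatever the treatment. The dimmer probes spread further: A_33_P3307068 (GOLGA2) had -0.14 in DU145 and 0.41 in PC3, and A_21_P0000086 (GOLGA3, hg19 chr12:133360454-133360513, on the second design alone) had -0.46 and -0.06.

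The second question was whether miR-143 and miR-145 changed GOLM1. Under miR-143 the first probe had log2 ratios of -1.05 in DU145 and -1.55 in PC3, and the second had -0.77 and -1.18. Both lines and both probes thus lay below control, at 48.2% and 34.1% of control by the first probe. The mean was -1.30 (SE 0.27, limma adjusted p = 0.141) and -0.98 (SE 0.12, adjusted p = 0.070), so neither passed the test, while the unadjusted p was 0.0033 and 2.1e-04. miR-143 called 0.0626% of tested probes, and 1.74% lay below -0.5 on both arrays, among them these 2 of the 12 member probes tested. On the PC3 array 0.55% of tested probes were lower than the first GOLM1 probe, and on the DU145 array 1.48% were.

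The call for miR-143 depended on the background correction. With normexp correction and loess the mean of the first probe was -1.22 with limma adjusted p = 7.9e-04, and with loess alone it was -1.25 with adjusted p = 0.0050, both past the threshold. The control levels differed between arrays: the DU145 control of miR-143 had a GOLM1 Cy3 level of 3.75 by the first probe, against 2.71 in the DU145 control of si-GOLM1 (log2 over the array's 75th percentile). The miR-143-treated DU145 cells were at 2.70, close to that other control. In PC3 the 2 controls were at 1.42 and 1.43 and the miR-143-treated cells at -0.14, below both. By the second probe the DU145 controls were at 2.96 and 2.70 and the treated cells at 2.19, below both. The part of the control level in the DU145 value was not tested.

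Under miR-145 the GOLM1 values differed in sign between lines. The first probe had log2 ratios of 0.61 in PC3, -0.51 in DU145 and -0.98 in LNCap, and the second had 0.62, -0.56 and -0.81. PC3 thus lay above its control and the other lines below, on both probes, which read the same labelled RNA. The mean over the lines was -0.29 by the first probe (adjusted p = 0.589) and -0.25 by the second (adjusted p = 0.630), with limma, and miR-145 called 4.7% of tested probes. No member probe lay below -0.5 in all lines, against 2.68% of tested probes. The PC3 control of miR-145 had a GOLM1 level of 0.55, at the low end of the 5 PC3 controls (0.55 to 0.81), and the treated cells were at 1.17, above all 5. With 1 array per line the difference between lines was not tested.

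GOLM1 was also low under miR-27b in each of its 3 lines. The first probe had log2 ratios of -2.00 in PC3, -1.10 in 786O and -0.71 in A498, and the second had -2.04, -0.78 and -0.73. In PC3 that left 25.1% of the control level by the first probe, and only 0.69% of tested probes were lower on that array. The renal pair, on the second design, had a mean of -0.90 (SE 0.27, limma adjusted p = 0.248) and -0.76 (SE 0.12, adjusted p = 0.077), which did not pass, while the test called 0.403% of probes. Both GOLM1 probes were among the 1.95% of tested probes below -0.5 in both renal lines. The PC3 array stood alone on the first design and had no test.

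miR-23b, whose seed is closest to that of miR-27b (shown above), had GOLM1 log2 ratios of -1.38 and -1.30 in PC3. miR-24 in PC3 had -0.44 and -0.42. These 2 arrays and the PC3 array of miR-27b name 1 shared control, and the spread of their Cy3 values around each other was an SD of 0.45 to 0.48, against 0.74 to 0.83 for other pairs of PC3 controls, so the 3 values are not independent. The control levels of GOLM1 on them were 0.73 to 0.81, and the treated levels were -1.18 under miR-27b, -0.59 under miR-23b and 0.28 under miR-24. Log2 ratios past 1.0 in either direction made up 12.9% of tested probes under miR-27b, 11% under miR-23b and 24.7% under miR-24. Both GOLM1 probes were past it under miR-27b and miR-23b, and neither under miR-24.

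Under miR-375 in FaDu the 2 probes had 0.59 and 0.89, with the treated level at 0.37 by the first probe and the 3 FaDu controls at -0.23, 0.01 and 0.67. Wogonin gave 0.61 and 0.57 in SAS but -0.05 and -0.16 in FaDu; the SAS control of that array was at 0.20, against 1.29 and 1.31 in the other SAS controls. Under si-LAMB3 in SAS the probes disagreed, with -0.58 and -0.13. Genistein gave -0.16 to -0.04, si-CAV2 gave 0.17 to 0.35, CXCL10 gave 0.01 to 0.04 at 12 h and 24 h, and miR-29a in SAS gave -0.21 and 0.03. The probes otherwise moved together, with Pearson r = 0.98 over the 16 arrays of the first design and 0.99 over the 8 of the second; this is a description over arrays that share lines and slides. Their largest gap was 1.24, under si-GOLM1 in PC3.

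The genes whose log2 ratio followed that of GOLM1 most closely over the 22 arrays without si-GOLM1 were METAP1 (Pearson r = 0.79), a methionine aminopeptidase, ORC3 (r = 0.73) and ORC5 (r = 0.70), subunits of the origin recognition complex, SNX19 (r = 0.72), a sorting nexin, and B4GALT3 (r = 0.71), a galactosyltransferase of the Golgi. These were the highest of 17398 probes compared, and the arrays share lines, slides and a PC3 control. B4GALT3 had -2.06 and SNX19 -1.22 under miR-27b in PC3, and METAP1 had 0.84 under miR-375 in FaDu. Among the members, r ran from 0.07 for GOLGA4 down to -0.61 for GOLGA3.

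In control cells GOLM1 was highest in DU145 on both designs. By the first probe, the Cy3 levels on the first design were 2.72 ± 0.12 in DU145 (SD, n = 2), 1.94 in 786O, 1.53 in LNCap and 1.23 in A498 (n = 1 each), 0.93 ± 0.64 in SAS (n = 3), 0.63 ± 0.13 in PC3 (n = 3) and 0.15 ± 0.46 in FaDu (n = 3). The second probe gave the same order. DU145 and its neighbour 786O did not differ past the test (0.77, limma adjusted p = 0.402), nor did FaDu and SAS below, and the lines between had 1 sample each or lay within the SAS spread, so that order is not settled. PC3 minus DU145 was -2.09 (limma adjusted p = 0.0032) on the first design and -2.22 by the second probe (adjusted p = 0.0035), where this contrast called 21.9% of tested probes. On the second design it was -1.80 (adjusted p = 0.052) and -2.24 (adjusted p = 0.018), where it called 17.2%. FaDu minus SAS was -0.78 (limma adjusted p = 0.136) by the first probe and -0.90 (adjusted p = 0.115) by the second, and 20.2% of tested probes were called. With 1 control left out, the first probe ran from -1.15 to -0.59. It passed only without the SAS control of wogonin (-1.15, limma adjusted p = 0.029). Without any other control the adjusted p was 0.073 to 0.368.

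**Figure D2:**
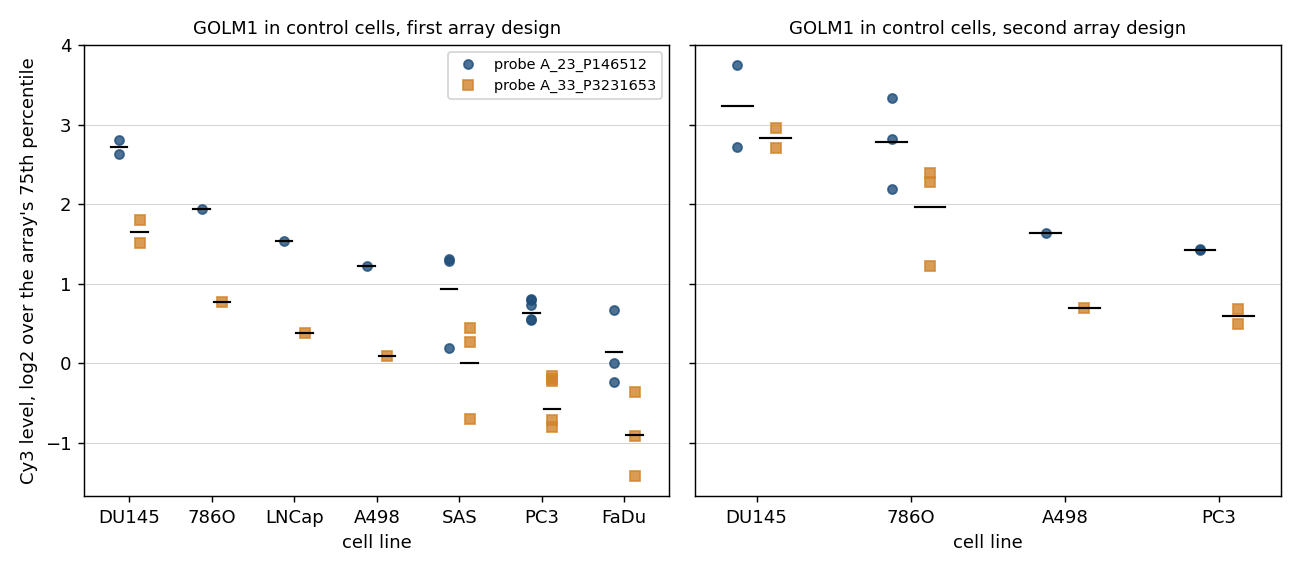
GOLM1 level in control cells by line, as the Cy3 signal in log2 units over the array's 75th percentile, for both probes and both array designs; points are arrays and lines are means, for PC3 on the first design with the 3 controls of 1 name averaged first. The DU145 means were 2.72 and 3.23 by the first probe and the PC3 means 0.63 and 1.43.

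The other members differed between lines in other ways. Over all lines, 5 of the 7 members with an F test on the first design were called (GOLM1, GOLGA3, GOLGA4, GOLGA5 and GORASP2), where 58.4% of tested probes were, and the brightest GOLGB1 probe had no test because its 786O spot was an outlier. On the second design, 2 of 8 were called (GOLGA2, adjusted p = 0.048, and GOLGA4, adjusted p = 0.032, with limma), where 37% of tested probes were. Neither share is a result about these genes. The counts used the brightest probe of each gene. On the second design that GOLM1 probe did not pass the F test, while the second GOLM1 probe did. GOLGA5 was highest in FaDu, with Cy3 levels of 1.64, 1.87 and 2.58, against -0.02, 0.06 and 0.30 in SAS (FaDu minus SAS 1.91, adjusted p = 6.0e-04 with limma). GOLGA3 showed the same direction, 2.52 ± 0.63 in FaDu and 1.17 ± 0.03 in SAS (SD, n = 3 each; difference 1.35, adjusted p = 0.011 with limma). The FaDu control of miR-375 was the highest FaDu control for both genes, and without it the differences were 1.64 (adjusted p = 9.9e-04 with limma) for GOLGA5 and 0.998 (adjusted p = 0.021 with limma) for GOLGA3. On the first design GOLGA4 was higher in PC3 than in DU145, 1.28 ± 0.14 (n = 3) against 0.08 ± 0.08 (n = 2) (adjusted p = 0.0056 with limma), the reverse of GOLM1. On the second design the difference was 0.889 and did not pass (adjusted p = 0.064 with limma). This contrast called 21.9% of tested probes on the first design and 17.2% on the second. GORASP2 was lowest in LNCap, at 1.41 (n = 1), against means of 2.19 to 3.04 in the other lines on the first design. With 1 LNCap sample, its place below the nearest line (LNCap minus DU145 -0.77) is not settled.

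**Figure D3:**
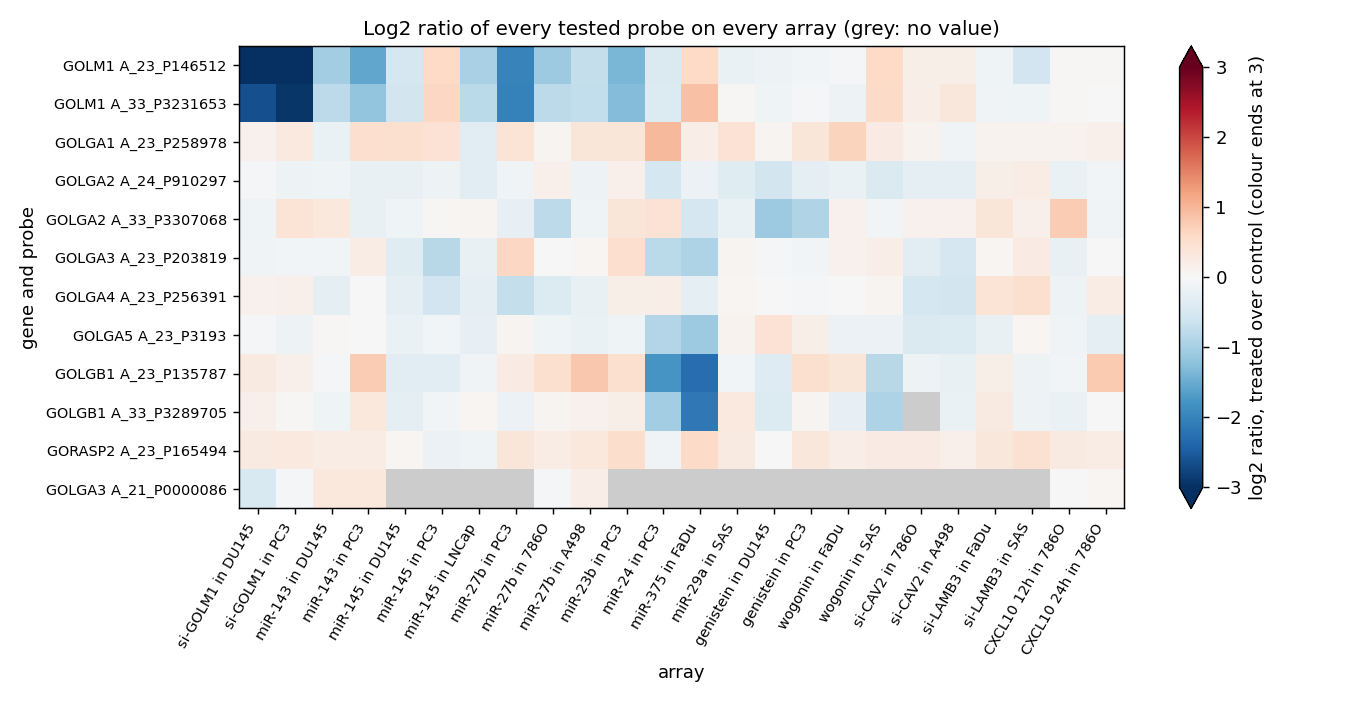
Log2 ratio of treated over control for the 12 tested member probes (rows) on the 24 arrays (columns), blue for lower and red for higher in treated cells, with colours ending at 3 in either direction. GOLM1 was at -4.15 to -2.64 under si-GOLM1, and GOLGB1 was at -2.29 and -2.14 under miR-375 in FaDu.

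GOLGB1, GOLGA5 and GOLGA3 had their lowest values under miR-375 in FaDu, on an array whose control stood apart for them, and low values under miR-24 in PC3. GOLGB1 was measured by A_33_P3289705 (hg19 chr3:121412690-121412749) and by the dimmer A_23_P135787 (hg19 chr3:121382850-121382909). It had log2 ratios of -2.14 and -2.29 under miR-375 and of -1.05 and -1.77 under miR-24. GOLGA5 (A_23_P3193, hg19 chr14:93305973-93306032) had -1.10 and -0.88 on the same arrays, and GOLGA3 (A_23_P203819, hg19 chr12:133345678-133345737) had -0.92 and -0.80. Log2 ratios past 1.0 made up 20.9% of tested probes under miR-375, and 3 of 11 member probes were past it, all lower; under miR-24 2 of 11 were, both of GOLGB1, beside 24.7% of tested probes. Neither share is a result about the members. GOLGA1 (A_23_P258978, hg19 chr9:127641118-127641177) had 0.97 under miR-24, its highest value. These arrays had no repeat and no test.

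The levels behind these values differed between the 2 arrays. The FaDu control of miR-375 had a GOLGB1 level of 2.84 by the brighter probe, against 0.23 and 0.62 in the other FaDu controls, and the treated cells were at 0.70, close to those controls. GOLGA5 stood likewise at 2.58 in that control against 1.64 and 1.87, with 1.49 in the treated cells, and GOLGA3 at 3.23 against 2.03 and 2.31, with 2.32. That control also differed most from the other FaDu controls over all tested probes (SD 0.80 and 0.89, against 0.61 between the other pair). Its array lay on another slide than the other FaDu arrays, which shared a slide. A difference between slides and a difference between control cells thus cannot be told apart here. Under miR-24 the PC3 control was at 1.51, within the 1.22 to 1.59 of the 5 PC3 controls, and the treated cells were at 0.46, below all of them. GOLGA5 under miR-24 was at -0.98, below the PC3 controls at -0.16 to -0.02.

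**Figure D4:**
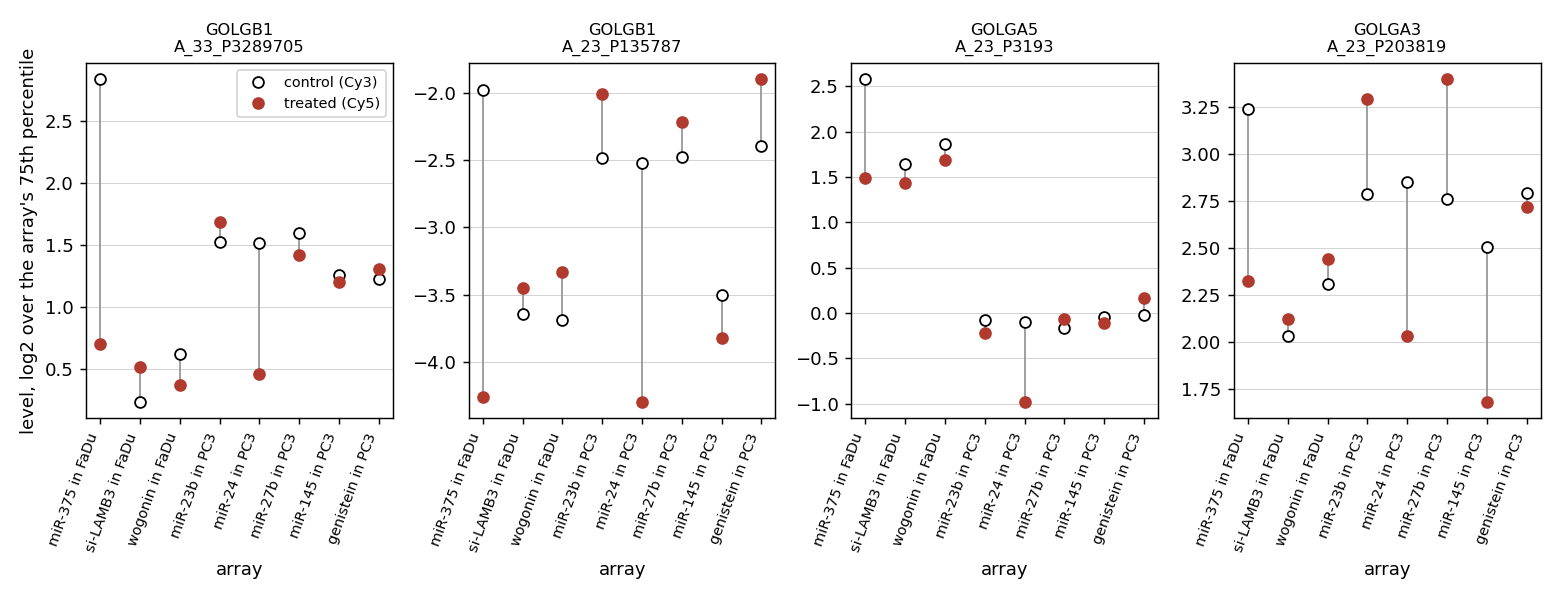
Levels in control (open, Cy3) and treated (filled, Cy5) cells on the 8 FaDu and PC3 arrays of the first design for GOLGB1 (both probes), GOLGA5 and GOLGA3, in log2 units over the array's 75th percentile, each panel with its own scale. Under miR-375 the control point stood high, and under miR-24 the treated point stood low.

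GOLGB1 also had -0.93 and -0.82 in SAS under wogonin, but -0.24 and 0.36 in FaDu (mean of the brighter probe -0.59, limma adjusted p = 0.185), where wogonin called 2.73% of probes. GOLGA4 (A_23_P256391, hg19 chr3:37407741-37407797) had its lowest value under miR-27b in PC3, at -0.71, with -0.41 in 786O and -0.22 in A498. It had -0.55 in A498 and -0.54 in 786O under si-CAV2, close in both lines (limma adjusted p = 0.346, 0.0846% of probes called). It had 0.40 in FaDu and 0.48 in SAS under si-LAMB3 (limma adjusted p = 0.080, 6.04% called). Under miR-145 it had -0.56 in PC3, -0.28 in DU145 and -0.27 in LNCap (limma adjusted p = 0.088), and GOLGA3 had -0.84, -0.37 and -0.22 (limma adjusted p = 0.086). These GOLGA4 and GOLGA3 values each had 1 direction in every line of their treatment, without passing the test.

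GOLGA2 gave different values by probe. The brightest probe A_24_P910297 (hg19 chr9:131018496-131018555) had -0.27 in PC3 and -0.55 in DU145 under genistein (limma adjusted p = 0.094). The dim probe A_33_P3307068, listed with an interval of 26 bases (hg19 chr9:131020824-131020849), fell by 0.91 and 1.08 (mean -0.99, SE 0.13, limma adjusted p = 0.012), where genistein called 7.94% of probes. On the second design the dim probe had 0.76 after CXCL10 for 12 h and -0.10 after 24 h, while the brightest had -0.20 and -0.07; CXCL10 called 0.209% of probes and no member. Over the 16 arrays of the first design the probes had r = 0.40, so they cannot be read as 1 measure. GORASP2 (A_23_P165494, hg19 chr2:171823014-171823073) had an SD of 0.04 over the second design, where 0.501% of tested probes had a smaller one, and its highest value was 0.57, under miR-375. Under miR-29a in SAS none of the 11 member probes was past 1.0, where 9.6% of tested probes were. A second GOLGA1 probe (A_33_P3271460) was not well above background in Cy3 on any array and was not tested.

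The surrounding Golgi machinery was read from 6 lists of 85 tested genes in all: other golgins and tethers, the COG tethering complex, the COPI and COPII vesicle coats, Golgi SNAREs with RAB GTPases, and glycosylation and processing enzymes. Under si-GOLM1 none of the 85 was called by limma, where 0.188% of all tested probes were, and 16 of 85 had an unadjusted p under 0.05, beside 4887 of all 28752 tested probes. The list medians lay between 0.03 and 0.17, against 0.0030 over all tested probes. MAN1A1, a mannosidase that trims N-glycans, had the largest value, 0.79 in DU145 and 0.52 in PC3 (adjusted p = 0.087 with limma). GOLT1B, a vesicle transport protein, had 0.36 and 0.64. CASC4, a relative of GOLM1 also named GOLM2, had 0.38 in DU145 and 0.61 in PC3 (adjusted p = 0.146 with limma). Of the coat genes, SEC23A (COPII) had 0.38 and 0.54 and ARCN1 (COPI) had 0.30 and 0.35. STX6, a SNARE of the trans Golgi, had 0.32 and 0.53, and COG4 had -0.17 and -0.40. These genes were picked for values of 1 direction in both lines, and none passed the test.

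Under miR-143 none of the 85 was called either (0.0626% of all tested probes were), and 13 had an unadjusted p under 0.05, beside 4191 of all 28752 tested probes. The list medians were -0.04 to 0.06, against 0.012 over all tested probes. SEC24C, a cargo adaptor of the COPII coat, had 0.57 in DU145 and 1.07 in PC3 (limma adjusted p = 0.086). ACBD3, a giantin-binding protein, had -0.89 and -0.36, COG5 had -0.53 and -0.40, and ARFGAP2, which acts on the COPI coat, had 0.38 and 0.60. RAB1A, a GTPase of early Golgi transport, had 0.17 and 0.40, and GALNT2, which starts O-linked glycans, had -0.16 and -0.46.

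Under miR-145, 5 of the 85 were called, 3 higher and 2 lower, beside 4.7% of all tested probes; list medians ran from -0.06 to 0.03, against -0.041 over all tested probes. SAR1A, the GTPase that starts the COPII coat, rose by 1.89 in PC3, 0.64 in DU145 and 2.87 in LNCap (mean 1.80, SE 0.34, limma adjusted p = 0.026). BLZF1, a partner of GORASP2 also called golgin-45, rose by 2.85, 1.16 and 0.80 (mean 1.60, limma adjusted p = 0.034). SEC24C rose by 0.91, 0.28 and 0.64 (mean 0.61, limma adjusted p = 0.038). GOLIM4, a cycling Golgi membrane protein, fell by 1.06, 0.65 and 0.67 (mean -0.79, limma adjusted p = 0.019). GALNT1, of the same enzyme family as GALNT2, fell by 1.41, 0.89 and 0.51 (mean -0.94, limma adjusted p = 0.040). COG6 had values of -0.31 to -0.24, COPZ1 of -0.54 to -0.22, and NAPA of 0.06 to 1.47, none called.

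**Figure D5:**
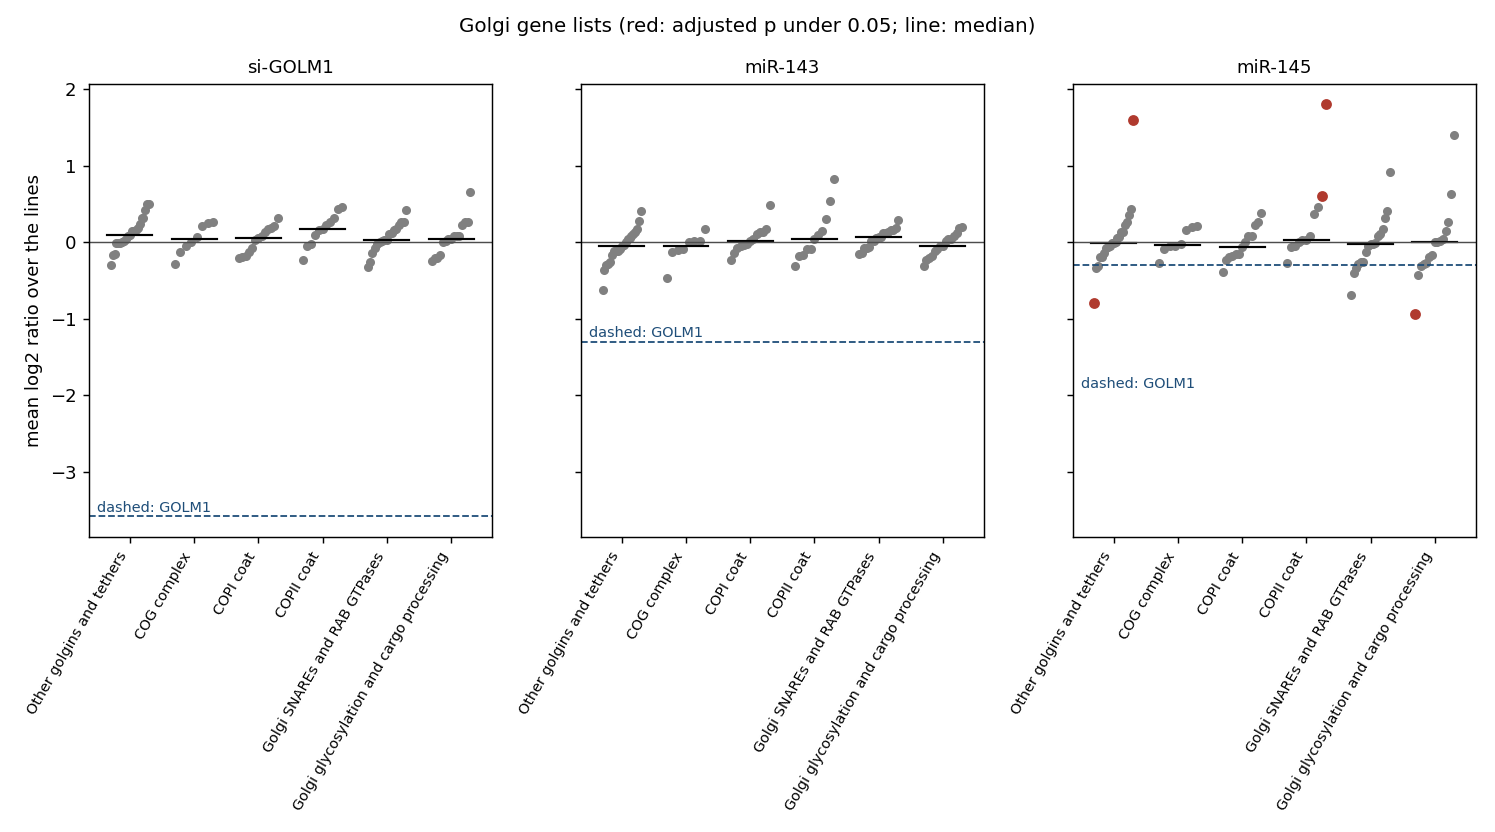
Mean log2 ratio over the lines for each tested gene of 6 Golgi lists under si-GOLM1, miR-143 and miR-145, with list medians as black lines, genes passing the test in red and GOLM1 as a dashed line. GOLM1 lay below every listed gene under si-GOLM1 (mean -3.58) and miR-143 (mean -1.30), and 5 listed genes passed under miR-145.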

How the data were processed

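The authors labelled total RNA of treated cells with Cy5 and of control cells with Cy3 and quantified the scanned arrays with Agilent Feature Extraction (version 10.7.3.1, per the submitters' processing notes). The deposited log10 ratios (background-subtracted, dye-normalised by that software) were multiplied by 3.32 to give log2 ratios. The deposited Cy3 and Cy5 intensities were taken as log2 minus the array's 75th percentile and give levels. Spots marked as outliers and control spots were left out, and spots of 1 probe were averaged.

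A ratio was tested where the probe was well above background in at least 1 channel on at least 50% of the design's arrays (27183 of 42405 probes on the first design, 28752 of 50599 on the second); this filter was set after the data were seen. limma (version 3.58.1, R 4.3.3) was fitted over all tested probes of a design, with 1 coefficient per treatment and the spread shared by all its arrays, and p-values were adjusted by Benjamini-Hochberg over those probes. Control levels were compared between lines by an F test and by contrasts, with the 3 PC3 controls of 1 name averaged to 1 sample. These comparisons did not pair the controls of the same treatment across lines. A gene is represented by its brightest tested probe. No p is given where a treatment had 1 array. The scripts were tested on simulated data.

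Named genes are all members on all probes, the siRNA targets, the called genes of each Golgi list (or the 1 or 2 largest of 1 direction) and the 5 genes most correlated with GOLM1. The members and lists were chosen with earlier results of these data known. The number of arrays limits the precision. Alternatives were background correction, centring, dye mean, filter, spread, probe choice and leaving out arrays.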

Additional observations from a re-analysis of the deposited data

Results flagged for a closer look

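GOLM1 under miR-145 is flagged because 1 line lay above its control and the others below, past 0.5 in both directions on both probes. The first probe (A_23_P146512) had log2 ratios of 0.61 in PC3, -0.51 in DU145 and -0.98 in LNCap, and the second (A_33_P3231653) had 0.62, -0.56 and -0.81. The difference between the lines was not tested, since each line had 1 array.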

How the results depend on the processing

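Results were recomputed under other settings; those for single arrays were chosen after seeing the data. Leaving aside those without 1 library, 30 of 40 recomputed log2 values kept direction and side of the threshold, and 27 of 44 recomputed counts of called genes stayed within 1.5 times. GOLM1 under si-GOLM1 (-3.58) no longer passed when the mean of the other treatments on the design or slide was subtracted (-2.86), without a filter (-3.58) or with the spread of its own arrays alone (-3.58), and ran from -4.15 to -3.02 when 1 array was left out. GOLM1 under miR-143 passed with normexp (-1.22) or no correction (-1.25), and the mean of the other treatments, which holds si-GOLM1 and miR-27b, turned it to 0.18 on the design and on the slide. GOLM1 under miR-145 ran from -0.74 to 0.048 with 1 array left out, positive without LNCap. PC3 minus DU145 on the second design passed with quantile (-1.81) or normexp (-1.69) normalisation. FaDu minus SAS ran from -1.15 to -0.59 with 1 control left out.

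Of the members called under si-GOLM1 (1), normexp gave 2, and the subtracted mean of design or slide, no filter and own spread gave 0. Under miR-143 (0), normexp and no correction gave 1. Under miR-145 (0), requiring both channels above background on every array gave 2, GOLGA3 and GOLGA4. Over the other treatments (0), normexp gave 4, no correction and the same stricter filter 2, and subtracted means, no filter and averaged probes 1. On the second design's baseline (2), normexp gave 4, no filter 0, and leaving out 1 control 0 to 6 (6 without the 786O control of miR-27b, 1 without that of CXCL10 at 24 h, and 0 without any of the other 5 controls of PC3, DU145 and 786O). On single arrays, 86 of 108 values of GOLM1 and GOLGB1 moved by less than the software error and none changed sign. The causes were not tested. The slide block was not run on the second design, which has 1 slide. No paired analysis was possible because the labels give no replicate numbers and each line, treatment and time has 1 array; each ratio already sets treated against control cells of 1 line.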
